A study of Schizosaccharomyces pombe with 8 samples.

Results

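Small RNA was followed at nmt1 and at the genes and non-coding RNAs just upstream of it on chromosome 3 of the fission yeast Schizosaccharomyces pombe. The members were chosen by 6 identifiers because measured levels of this series stood out there, so their differences from wt are a description. They comprise nmt1, hel2, spp27, SPNCRNA.10, SPNCRNA.1233 and SPNCRNA.1234. They hold 11 of the 17962 elements of the deposited table and span 8.33 kb, from 1831763 to 1840092. The series sequenced small RNA of 18 to 28 nt from 8 strains grown in rich medium at 30 °C to an OD600 of 0.5, with 1 library per strain. The libraries are labelled Paf1Δ, Paf-1Q264Stop, Paf1-G104R, Leo1Δ, Leo1-W157Stop, Rot1-Q472Stop and Cdc73-G313R, and wild type (wt). All 8, wt included, carry the label ade6-hp+. As far as the study is known, ade6-hp is a hairpin RNA construct directed against ade6 and placed at the nmt1 locus, and the study asked how the Paf1 complex limits small RNA-directed silencing. Reads in the table are placed by sequence, so whether reads at nmt1 come from the native gene or from a construct was not tested.

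The gene nmt1 encodes an enzyme that makes the pyrimidine part of thiamine. It is named for having no message in thiamine, and its thiamine-repressed promoter is one of the standard tools for controlled expression in fission yeast. Its upstream neighbour hel2 encodes a ubiquitin ligase known in budding yeast for its part in ribosome quality control, and spp27, further upstream, encodes a subunit of an activating factor of RNA polymerase I. In fission yeast, Dicer cuts double-stranded RNA into small RNAs that Argonaute carries, best known from pericentromeric heterochromatin. The Paf1 complex travels with RNA polymerase II.

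The 3 coding genes lie on the plus strand in the order spp27, hel2, nmt1, and the 3 non-coding RNAs lie on the minus strand. SPNCRNA.1233 (1831763 to 1832796) reaches lower coordinates than spp27 (1831913 to 1834169) and lies opposite its first 884 bases. The hel2 transcript runs from 1834599 to 1837464. SPNCRNA.1234 (1837499 to 1840092) contains the whole nmt1 element (1838335 to 1839525) on the other strand, and SPNCRNA.10 (1837689 to 1838380) lies inside SPNCRNA.1234 over the stretch just upstream of nmt1. The sequence of that stretch is shown because SPNCRNA.10, which covers most of it, had the largest gain near nmt1. It is the plus strand of chr3:1838165-1838414, the 250 bases before the nmt1 gene start in RefSeq (ASM294v3), with a TATA motif in capitals.
nmt1 promoter: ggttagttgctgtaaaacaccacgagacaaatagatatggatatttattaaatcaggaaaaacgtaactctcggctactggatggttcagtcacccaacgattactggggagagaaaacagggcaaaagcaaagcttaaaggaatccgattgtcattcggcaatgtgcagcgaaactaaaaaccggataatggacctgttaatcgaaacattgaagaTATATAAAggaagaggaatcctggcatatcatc
The motif TATATAAA was searched on both strands and was found once, on the plus strand, starting 33 bases before the RefSeq start. The same letters occurred in 363 of 5112 protein-coding gene windows of this length (7.1%). The highest coordinate of SPNCRNA.10, where this minus-strand element begins, is 1838380, just before the motif (1838382 to 1838389). It therefore covers the promoter up to its TATA motif. The table starts its nmt1 5′ UTR at 1838335, before the RefSeq start at 1838415.

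A level is the deposited log2 value, with a floor of 3, and read numbers were recovered from it by element length and library scale. Summed over all elements, recovered reads came to 917883 to 3156332 in the mutant libraries and 6422479 in wt, the largest sum. Elements overlap, so a read can enter this sum more than once. The rRNA class took 8.54% to 60.02% of the common total in the mutants and 4.28% in wt, and the most in the library labelled Cdc73-G313R, followed by Paf1Δ. Since all libraries share 1 total, levels elsewhere are lower where rRNA takes more. With a common total computed without rRNA, 62 of the 70 differences at the 10 member elements besides the nmt1 transcript were above 0, and 60 as deposited. Over the elements past a level of 5 in the higher library, the median difference from wt was -2.002 in Cdc73-G313R and between -0.70 and 0.01 in the other 6. Over the bodies of the deleted genes, leo1 held 2 reads in Leo1Δ and 62 in wt, and paf1 held 0 in Paf1Δ and 7 in wt. Since paf1 also held 0 in Leo1Δ, its reads do not check the Paf1Δ label. In Leo1-W157Stop the body of leo1 held 519.5 reads against 62 in wt, and in Paf-1Q264Stop that of paf1 held 181.5 against 7. There the gene with more reads was the labelled one. Reads over the genes of the complex did not match 3 other labels, and why such reads stood out was not tested. The body of prf1 held 823 reads in the library labelled Paf1-G104R and 1 in wt, that of cdc73 held 149 in Rot1-Q472Stop and 8 in wt, and that of paf1 held 26 in Cdc73-G313R and 7 in wt. Strains are therefore named as the library labels name them, and each direction given for those 3 libraries carries this conflict. Elements opposite tRNA genes held a median of 7777 reads in wt (7 elements), against 5.79 for the tRNA elements themselves (170 elements). A level at an element is therefore read as mostly RNA of the opposite strand, which was not tested at the members.

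Each strain is a single library, so no difference has a replicate check and none could be tested. Ratios are ratios of levels per length with 95% exact binomial intervals, which cover counting error only. All 7 comparisons share the 1 wt library.

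Small RNA was higher in most mutant libraries than in wt at 10 of the 11 member elements, which had a median difference over all 11 of 4.17 in Leo1Δ, 4.08 in Paf-1Q264Stop and 3.81 in Paf1-G104R. This median was 2.79 in Leo1-W157Stop and 2.68 in Rot1-Q472Stop, and 1.25 in Paf1Δ and 0.56 in Cdc73-G313R. The same median over all 17962 elements lay between -0.20 and 0.00. Wild type had the lowest level of the 8 libraries at 7 of the 11 elements, and Cdc73-G313R at the other 4. The exception in the other direction was SPNCRNA.1234, where wt had the highest level.

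Counts past a difference of 1 are given for elements at a level of at least 5 in the higher library. A single member, SPNCRNA.1234, reached that level in wt, so the others entered only where a mutant was high, and nothing is read from their counts. In Leo1Δ 9 of 10 members past the filter were higher and 0 lower, where 5.08% of all elements past the filter were higher and 29.6% lower. In Paf1-G104R 10 of 11 were higher and 0 lower (background 4.58% and 9.79%). In Paf-1Q264Stop 9 of 10 were higher and 0 lower (3.8% and 12.6%). In Leo1-W157Stop 9 of 10 were higher and 1 lower (8.73% and 32.9%). In Rot1-Q472Stop 8 of 9 were higher and 1 lower (8.37% and 26.3%). In Cdc73-G313R 4 of 5 were higher and 1 lower (3.92% and 74.9%). In Paf1Δ 3 of 5 were higher and 1 lower (22.3% and 19.8%). The member counted as lower was SPNCRNA.1234 each time. Those counted as higher include short elements on few reads. The hel2 5′ UTR held 1 read in Cdc73-G313R and 2 in Paf1Δ, against 0 in wt. The spp27 5′ UTR held 4 in Cdc73-G313R and 1 in wt.

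**Figure D1:**
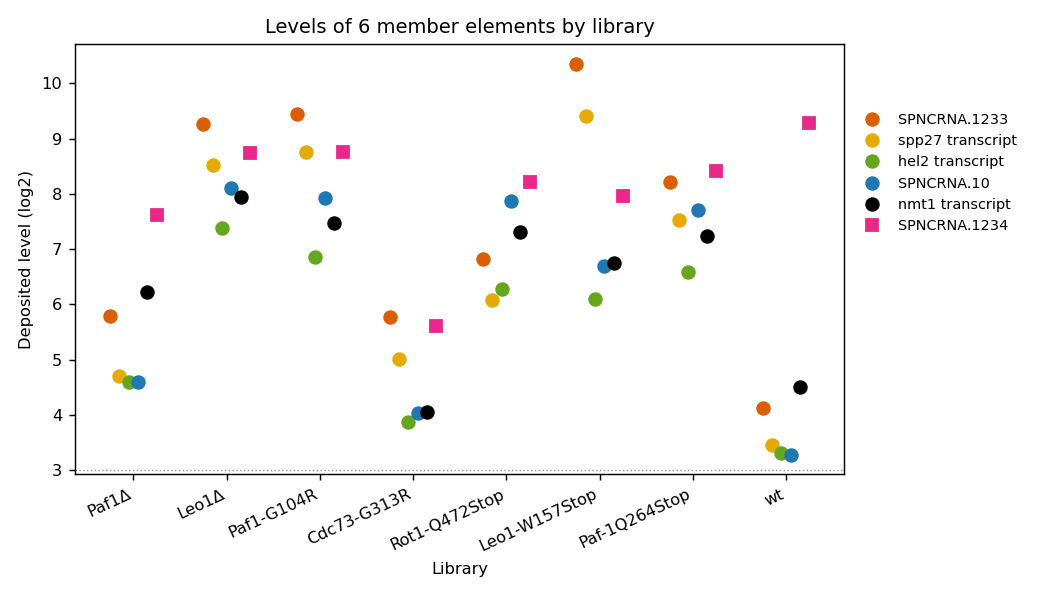
Deposited log2 level (vertical axis, floor of 3 dotted) of 6 member elements in each library (horizontal axis), with 1 point per element and library and no replicates. In Leo1Δ all 6 lay between 7.39 and 9.27, while in wt SPNCRNA.1234 stood at 9.29 and the other 5 between 3.28 and 4.50.

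The nmt1 transcript held 85 reads in Paf1Δ, 558 in Paf-1Q264Stop, 626 in Paf1-G104R, 671 in Leo1Δ, 164.5 in Leo1-W157Stop, 352 in Rot1-Q472Stop, 14 in Cdc73-G313R and 88 in wt. Set to library scale, its level was highest in Leo1Δ at 7.94, then 7.47 in Paf1-G104R, 7.31 in Rot1-Q472Stop, 7.23 in Paf-1Q264Stop, 6.74 in Leo1-W157Stop and 6.23 in Paf1Δ, against 4.50 in wt, with Cdc73-G313R lowest at 4.05. The ratio to wt was 16.3 (13.1 to 20.6) in Leo1Δ, 11.6 (9.28 to 14.7) in Paf1-G104R, 6.79 (5.23 to 8.93) in Leo1-W157Stop and 4.61 (3.38 to 6.29) in Paf1Δ, with Rot1-Q472Stop (8.15 to 13.2) and Paf-1Q264Stop (7.78 to 12.4) between. The intervals of each pair of neighbours in this order overlapped, while those of Leo1Δ and Paf1Δ did not. In Cdc73-G313R the interval (0.309 to 1.04) reached 1. Its difference from wt, -0.45, was smaller in size than the median shift of that library. The difference was 1.56 relative to that shift, 0.67 after quantile normalization and 0.34 with a common total without rRNA, so its sign in this library depends on the scaling.

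Within the nmt1 element of the table the ratio to wt was higher at the 5′ UTR than over the whole transcript in 4 libraries. This 5′ UTR element starts at 1838335, before the RefSeq start at 1838415. It therefore takes in promoter sequence with the TATA motif, and it overlaps SPNCRNA.10 on the other strand by 46 bases. The 5′ UTR element (150 nt) stood at 8.66 in Leo1Δ, 8.62 in Paf-1Q264Stop, 8.30 in Paf1-G104R and 8.21 in Rot1-Q472Stop, against 4.49 in wt. In these libraries it was 19.9 to 27.4 times the wt level, while the whole transcript was 9.76 to 16.3 times. The 5′ UTR ratios rest on 11 reads in wt. Their intervals overlapped those of the transcript in Leo1Δ (14.9 to 56.2), Paf1-G104R (11.5 to 43.5) and Rot1-Q472Stop (10.6 to 41.4), and lay above it in Paf-1Q264Stop (14.5 to 54.1). It held 940 reads per kb in Leo1Δ where the rest of the transcript held 509.1, and in wt the values were 73.33 and 73.97. In Leo1-W157Stop the 5′ UTR (6.55) stayed below the whole transcript (6.74), and it held 5 reads in Paf1Δ and 2 in Cdc73-G313R, too few to place.

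SPNCRNA.10, the minus-strand element over the nmt1 promoter, was nearly empty in wt and much higher in 5 mutants. It held 12 reads in Paf1Δ, 459 in Paf-1Q264Stop, 508 in Paf1-G104R, 440 in Leo1Δ, 92 in Leo1-W157Stop, 307 in Rot1-Q472Stop, 8 in Cdc73-G313R and 6 in wt. The intervals of all 7 ratios to wt lay above 1. The lowest ratios were 4.93 (1.5 to 17.2) in Cdc73-G313R and 9.55 (3.32 to 31) in Paf1Δ, and the highest had an interval of 71.5 to 430 in Leo1Δ, whose level was 8.11 against 3.28 in wt. Those of Paf1-G104R, Rot1-Q472Stop, Paf-1Q264Stop and Leo1-W157Stop were 138, 132, 118 and 55.7.

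SPNCRNA.1234, which contains SPNCRNA.10, behaved differently as a whole. It held 515.33 reads in Paf1Δ, 2867 in Paf-1Q264Stop, 3403 in Paf1-G104R, 2570 in Leo1Δ, 869.25 in Leo1-W157Stop, 1481.5 in Rot1-Q472Stop, 145 in Cdc73-G313R and 8154.95 in wt. Its level relative to wt was lowest in Cdc73-G313R, at 0.0658 (0.0554 to 0.0775), and highest in Paf1-G104R, at 0.682 (0.655 to 0.71), and all 7 intervals lay below 1. The difference in Leo1Δ was -0.56, and 0.14 when recentred on the median of all elements. It was below 0 in the other 6 under each scaling tried. Recentring also took the difference below a size of 1 in Rot1-Q472Stop (-0.68) and Leo1-W157Stop (-0.86). Outside SPNCRNA.10, over 1902 nt, the reads numbered 137 to 2895 in the mutants and 8148.95 in wt. The table does not place them among the 190 bases on the lower-coordinate side of SPNCRNA.10, the stretch opposite nmt1 and the 567 bases beyond the end of nmt1.

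The share of SPNCRNA.1234 reads that fell in SPNCRNA.10 does not depend on how the libraries were scaled. It was 2.33% (1.21 to 4.03) in Paf1Δ, 16% (14.7 to 17.4) in Paf-1Q264Stop, 14.9% (13.7 to 16.2) in Paf1-G104R, 17.1% (15.7 to 18.6) in Leo1Δ, 10.6% (8.62 to 12.8) in Leo1-W157Stop, 5.52% (2.41 to 10.6) in Cdc73-G313R and 20.7% (18.7 to 22.9) in Rot1-Q472Stop, against 0.0736% (0.027 to 0.16) in wt. Each mutant share lay above the wt interval, the 2 libraries of lowest nmt1 gain included. Both terms of this share moved, since reads outside SPNCRNA.10 were lower in the mutants, at 0.0622 to 0.58 times the wt level.

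**Figure D2:**
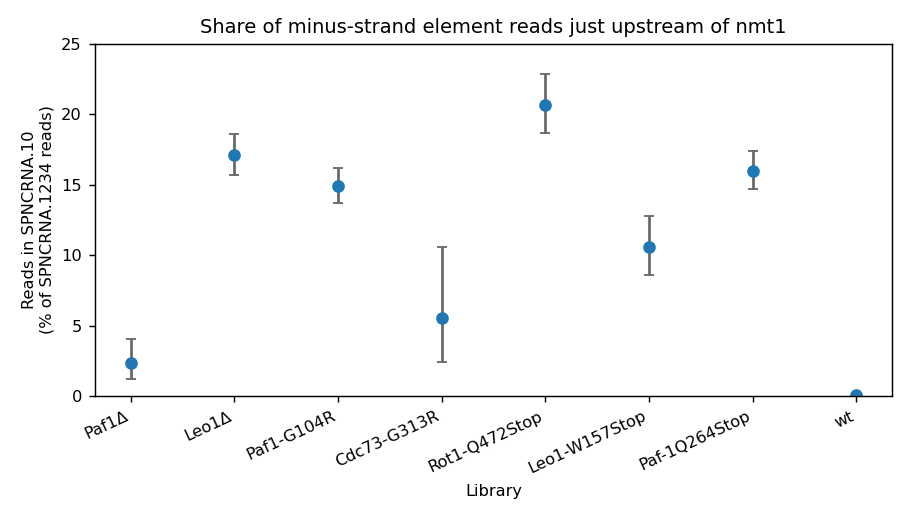
Reads in SPNCRNA.10 as a percentage of the reads in SPNCRNA.1234 (vertical axis) in each library (horizontal axis); bars are 95% exact binomial intervals for counting error, 1 library per strain. The share was between 2.33% and 20.7% in the mutants and 0.0736% in wt.

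Just downstream, wt was not low as it was at the promoter. SPNCRNA.504 (1839578 to 1840266, plus strand) stood at 7.58 in Paf1Δ, 10.35 in Paf-1Q264Stop, 10.39 in Paf1-G104R, 10.15 in Leo1Δ, 9.08 in Leo1-W157Stop, 7.15 in Cdc73-G313R and 9.82 in Rot1-Q472Stop, against 9.90 in wt, where it held 3311.48 reads. Its ratio to wt lay between 0.142 and 1.41. The cox4 intron, on chromosome 1 and the highest element of wt, had ratios from 0.0768 in Paf1Δ and 0.143 in Cdc73-G313R to 1.7 in Paf-1Q264Stop. In wt it held 244915.56 of the 245140.56 reads of the cox4 transcript. Whether these reads come from the native gene or from a construct was not tested. Over the 8 libraries, which share 1 total, the levels of SPNCRNA.504 and the cox4 intron had a Pearson r of 0.960 (Spearman 0.929), and those of SPNCRNA.504 and the nmt1 transcript 0.624 (0.714). This pair was picked after its values were seen.

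At the hel2 transcript all mutant libraries were above wt. It held 49.17 reads in Paf1Δ, 837 in Paf-1Q264Stop, 957 in Paf1-G104R, 1082 in Leo1Δ, 242 in Leo1-W157Stop, 394 in Rot1-Q472Stop, 26 in Cdc73-G313R and 28 in wt. The ratio to wt was 82.7 (56.9 to 125) in Leo1Δ, above that of nmt1 in the same library (13.1 to 20.6). It was 8.39 (5.15 to 13.8) in Paf1Δ and 3.43 (1.93 to 6.08) in Cdc73-G313R, where the difference in level, 0.56, did not reach 1.

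The 14 nt 5′ UTR element just before the start codon (1834599 to 1834612) is printed because it reached the highest level of hel2.
hel2 5′ UTR element, plus strand of chr3:1834599-1834612: tataaacaatcaaa
It held 2 reads in Paf1Δ, 30 in Paf-1Q264Stop, 24 in Paf1-G104R, 34 in Leo1Δ, 6 in Leo1-W157Stop, 17 in Rot1-Q472Stop, 1 in Cdc73-G313R and 0 in wt. Taking 3 reads per library as what a count of 0 allows, its level was at least 24.3-fold higher in Leo1Δ, 15.4-fold in Paf-1Q264Stop, 14.6-fold in Rot1-Q472Stop, 13.1-fold in Paf1-G104R and 7.27-fold in Leo1-W157Stop than in wt, by the mutant read numbers as they stand. With counting error in both libraries, the 95% interval of the ratio began at 18.7 in Leo1Δ, 11.8 in Paf-1Q264Stop, 10.6 in Rot1-Q472Stop, 9.83 in Paf1-G104R and 4.28 in Leo1-W157Stop. Reads of 18 to 28 nt are longer than the element, so if any overlap was counted its level is raised 2.21 to 2.93 times against longer elements. At the other end, the 3′ UTR (550 nt) held 10 reads in Leo1Δ, or 0.0403 times the density of the hel2 body (0.0193 to 0.0745), the lowest ratio of a mutant with reads there. It was 0.147 (0.0626 to 0.294) in Leo1-W157Stop, 0.167 (0.113 to 0.239) in Paf-1Q264Stop, and 0.222 in both Paf1-G104R (0.162 to 0.298) and Rot1-Q472Stop (0.132 to 0.352), against 1.14 (0.379 to 2.9) in wt. With 1 read in Paf1Δ and 0 in Cdc73-G313R, the intervals there reached 0.533 and 0.665. The 3′ UTR passed the filter and 1 in Paf1-G104R alone, with 47 reads there and 6 in wt.

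Among the 3 coding transcripts the largest ratio to wt was that of spp27 in Leo1-W157Stop, and SPNCRNA.1233, opposite its first part, was highest in the same library. The spp27 transcript held 43.5 reads in Paf1Δ, 1318 in Paf-1Q264Stop, 2963 in Paf1-G104R, 1914 in Leo1Δ, 2113 in Leo1-W157Stop, 263 in Rot1-Q472Stop, 75 in Cdc73-G313R and 34 in wt. It was 226 times wt (161 to 327) in Leo1-W157Stop, 142 times (102 to 206) in Paf1-G104R and 121 times (85.9 to 175) in Leo1Δ. Paf-1Q264Stop followed at 59.6 times (42.5 to 86.5) and Rot1-Q472Stop at 19.9 times (13.9 to 29.4), with Cdc73-G313R at 8.16 (5.37 to 12.6) and Paf1Δ at 6.11 (3.76 to 9.77). Unlike nmt1, spp27 was above wt in Cdc73-G313R without any recentring. SPNCRNA.1233 held 52 reads in Paf1Δ, 992 in Paf-1Q264Stop, 2205 in Paf1-G104R, 1488 in Leo1Δ, 1889.5 in Leo1-W157Stop, 213 in Rot1-Q472Stop, 66 in Cdc73-G313R and 50 in wt. Its ratio to wt reached 137 in Leo1-W157Stop.

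In the mutants, elements of both strands at the first part of spp27 held reads. Per length, SPNCRNA.1233 held 0.911 to 1.54 times the reads of the spp27 transcript without its 3′ UTR, and the interval included 1 in Leo1Δ, Cdc73-G313R, Rot1-Q472Stop, Leo1-W157Stop and Paf-1Q264Stop. These stretches, of 1034 and 1148 nt, share 884 bases, and the table does not place reads within them. In wt the minus-strand element held 50 reads and the plus-strand stretch 16, a ratio of 3.47 (1.94 to 6.53). Along spp27 the reads lay mostly before the 3′ UTR. The 3′ UTR held between 0.0313 (0.0241 to 0.0401) times the density of the body in Leo1-W157Stop and 0.198 (0.0967 to 0.372) times in Cdc73-G313R, against 1.17 (0.555 to 2.49) in wt. Its level was still 24.3 times wt in Leo1Δ and 25.1 times in Paf1-G104R.

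**Figure D3:**
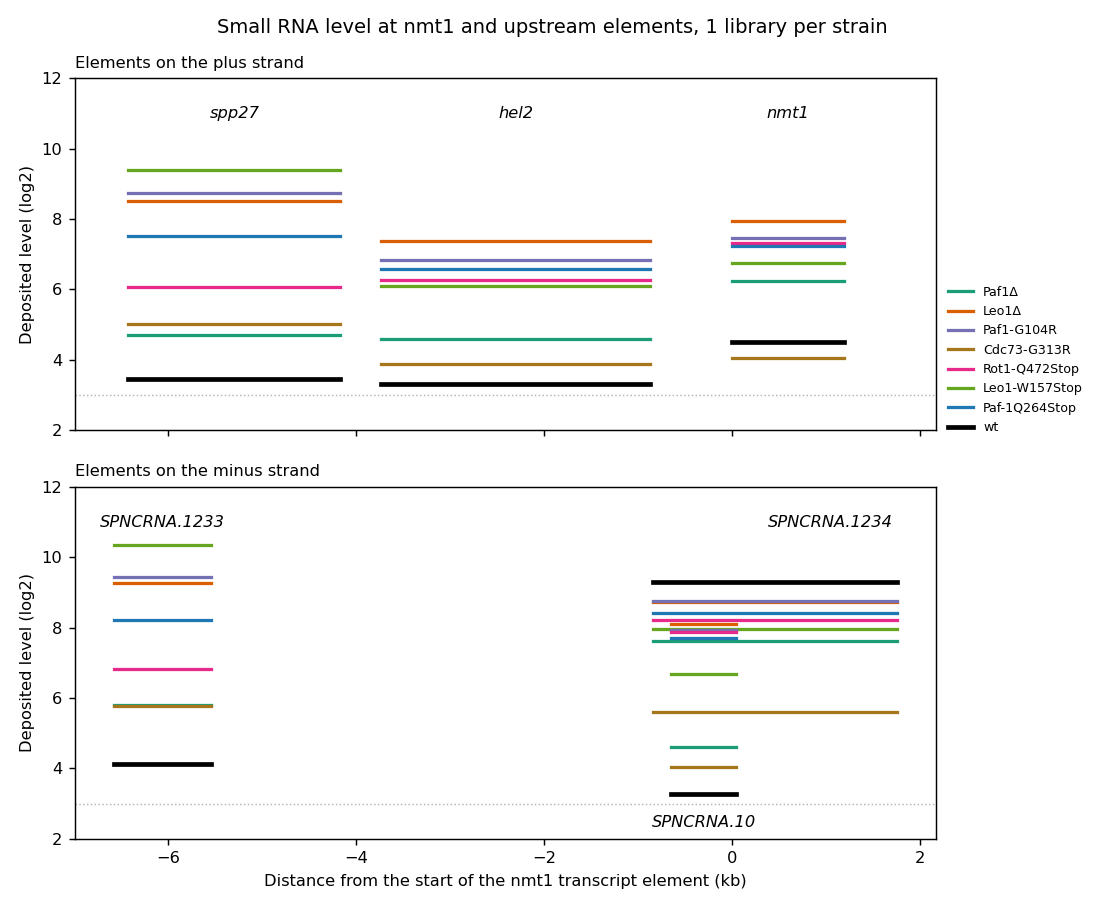
Deposited log2 level (vertical axes, floor of 3 dotted) of each transcript or non-coding RNA drawn over its extent, as distance from the start of the nmt1 element in kb (horizontal axis), for plus-strand elements (above) and minus-strand elements (below); colours are libraries, 1 per strain, with Paf1Δ (5.79) hidden under Cdc73-G313R (5.77) at SPNCRNA.1233 and Leo1Δ (8.74) under Paf1-G104R (8.75) at SPNCRNA.1234. Wild type (black) was lowest at spp27, hel2, SPNCRNA.1233 and SPNCRNA.10 and highest at SPNCRNA.1234.

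The libraries differed in the balance of small RNA between the spp27 and nmt1 transcripts. The minus-strand elements are not part of this comparison. The ratio of spp27 to nmt1 reads per length within a library needs no scaling between libraries. It was 6.78 (5.77 to 7.97) in Leo1-W157Stop, 2.83 (1.58 to 5.42) in Cdc73-G313R, 2.5 (2.29 to 2.73) in Paf1-G104R, 1.51 (1.38 to 1.65) in Leo1Δ, 1.25 (1.13 to 1.38) in Paf-1Q264Stop, 0.394 (0.335 to 0.464) in Rot1-Q472Stop and 0.27 (0.181 to 0.39) in Paf1Δ, against 0.204 (0.133 to 0.306) in wt. Thus spp27 exceeded nmt1 in 5 mutant libraries and nmt1 exceeded spp27 in Rot1-Q472Stop, Paf1Δ and wt. The intervals of Paf1Δ and wt overlapped. The 2 libraries labelled for leo1 were apart in this ratio: of the reads over the 3 transcripts, spp27 took 83.9% (82.4 to 85.3) in Leo1-W157Stop and 52.2% (50.6 to 53.8) in Leo1Δ, and whether replicate cultures would differ as much was not tested. The ratio of hel2 to nmt1 varied less, from 0.465 to 0.772 in 6 mutants, and was 0.24 (0.165 to 0.344) in Paf1Δ and 0.132 (0.0832 to 0.204) in wt. The highest, in Cdc73-G313R, had an interval of 0.388 to 1.6, which included 1.

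**Figure D4:**
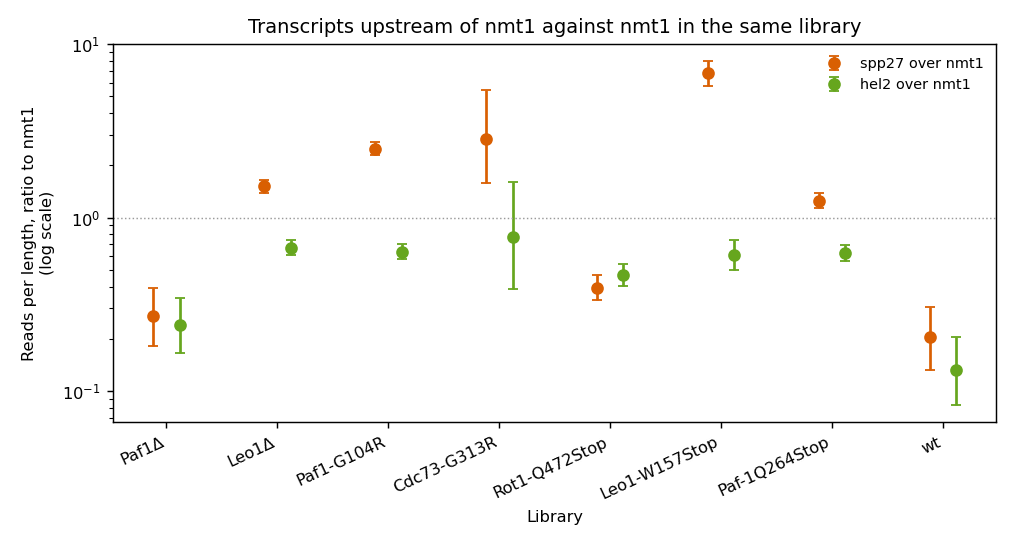
Reads per length of the spp27 and hel2 transcripts relative to nmt1 in the same library (vertical axis, log scale; dotted line at 1) by library (horizontal axis), with 95% exact intervals for counting error, 1 library per strain. The spp27 ratio ran from 0.27 in Paf1Δ to 6.78 in Leo1-W157Stop and was 0.204 in wt. The hel2 ratio stayed below 1 in all 8, with an interval that reached 1.6 in Cdc73-G313R.

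Of 11 elements within 10 kb on the upstream side, 4 to 6 per library passed the filter, of which 0 to 3 were higher by 1. On the downstream side 3 to 6 of 14 passed, and 0 to 3 were higher. The most were 3 of 6 upstream in Leo1-W157Stop, where 8.73% of all elements past the filter were higher. Downstream they were 3 of 5 in Paf1Δ (22.3%) and 3 of 6 in Rot1-Q472Stop (8.37%). Overlapping parts of a gene were counted apart. In Leo1-W157Stop the 3 were the rps2802 transcript and the msh6 transcript and intron, with 4 reads at the intron. In Rot1-Q472Stop all 3 were parts of rpl3702, which held 0 reads in wt. In Paf1Δ they were the gut2 transcript and 3′ UTR and SPCTRNAHIS.04. As at the members, some elements passed only where a mutant was high. Elements lower by 1 were 3 of 3 downstream and 2 of 4 upstream in Cdc73-G313R (74.9% of all elements past the filter). Downstream they were also 2 of 5 in Paf1Δ (19.8%) and 1 of 3 in Leo1-W157Stop (32.9%). The nearest upstream gene is msh6 (1827452 to 1831715, minus strand), which encodes a mismatch repair protein. Its level was 4.22 in Paf1Δ, 4.91 in Paf-1Q264Stop, 5.81 in Paf1-G104R, 5.55 in Leo1Δ, 6.77 in Leo1-W157Stop, 3.56 in Cdc73-G313R and 4.29 in Rot1-Q472Stop, against 3.48 in wt. Like spp27 it was highest in Leo1-W157Stop, with a ratio of 32.2 (25 to 42). Its difference there, 3.29, was larger than those of nmt1 (2.25) and hel2 (2.79). Further upstream the trs130 transcript, for a subunit of a vesicle tethering complex, differed from wt by -0.47 to 0.11 in all 7. On the downstream side SPNCRNA.1235 (1839787 to 1844115, plus strand) was highest in wt, at 6.87. Its ratio to wt ran from 0.144 in Cdc73-G313R to 0.92 in Paf-1Q264Stop. The transcript of gut2, for a mitochondrial glycerol-3-phosphate dehydrogenase, differed by -0.65 to 1.22, and passed the filter and 1 in Paf1Δ alone. The gut2 3′ UTR passed both in Paf1Δ (2.06), Paf-1Q264Stop (1.05), Paf1-G104R (1.78) and Leo1Δ (1.27), where the intervals of the ratio included 1 in Paf-1Q264Stop and Leo1Δ. Further downstream the set11 and spc19 transcripts stayed below the filter, at up to 4.45 and 4.78, with 4 and 3 reads in wt. The set11 ratio to wt was 21.6 (7.97 to 82.4) in Paf1-G104R and 14.4 (5.03 to 56.8) in Leo1Δ, and lowest in Cdc73-G313R at 1.85 (0.167 to 12.9). That of spc19 was 18 (5.64 to 91.6) in Paf1-G104R, while the intervals included 1 in Paf1Δ (0.64 to 35.7) and Cdc73-G313R (0 to 8.95). The rpl3702 transcript, for a ribosomal protein, stood at 5.60 in Rot1-Q472Stop and at the floor in wt, and SPCTRNAHIS.04, a tRNA, at 8.68 in Paf1Δ and 6.01 in wt.

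**Figure D5:**
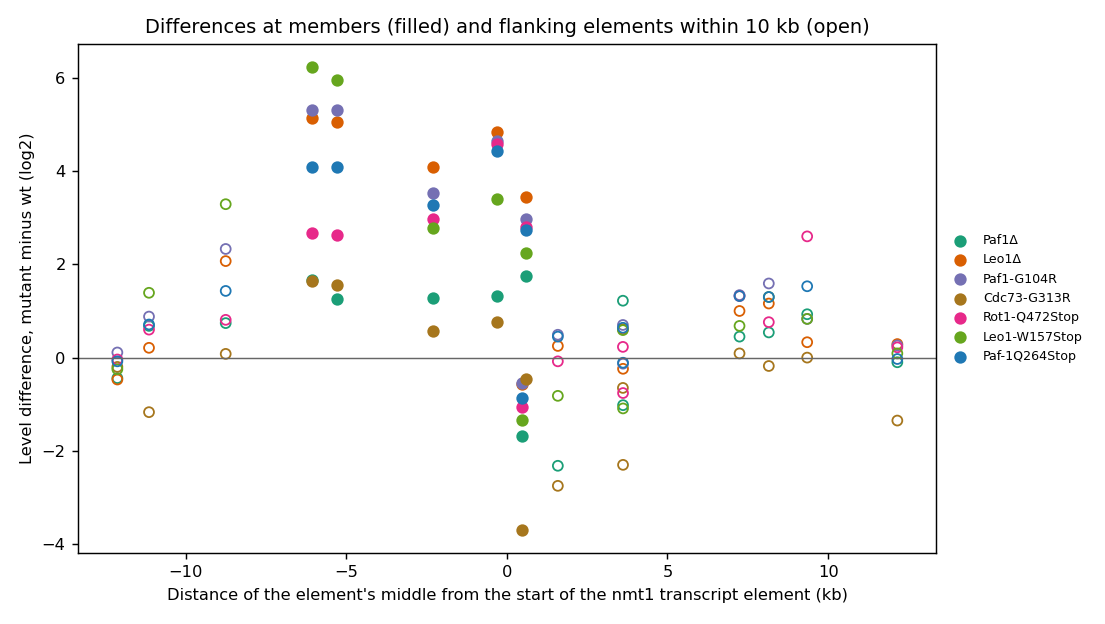
Difference in deposited log2 level, mutant minus wt (vertical axis), against the distance of each element's middle from the start of the nmt1 element in kb (horizontal axis), for transcripts and non-coding RNAs of the members (filled) and within 10 kb of them (open); colours are the 7 mutant libraries, which share 1 wt library. Filled points reach 6.23 at SPNCRNA.1233, fall to between -3.69 and -0.54 at SPNCRNA.1234, and open points at trs130 lie between -0.47 and 0.11.

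Across the 8 libraries the nmt1 transcript moved most closely with hel2 (Pearson r 0.953) and SPNCRNA.10 (0.936) among the other genes of the locus, and less with spp27 (0.757) and SPNCRNA.1234 (0.504). Outside the locus, 3376 elements at a level of at least 5 in some library were ranked by r with nmt1. The 5 highest, taking 1 per gene, were the vtc4 3′ UTR (0.963), the drs1 transcript (0.943), the bub1 5′ UTR (0.930), the trp1 transcript (0.925) and the nop16 5′ UTR (0.894). The genes vtc4 and bub1 lie on either side of ade6 on chromosome 3, trp1 and nop16 lie next to each other on chromosome 2, and drs1 lies on chromosome 3 beyond the window downstream of nmt1. Without wt and Cdc73-G313R, the 2 libraries farthest from the median of nmt1, r was 0.748, 0.748, 0.929, 0.818 and 0.769. It was not computed this way for elements of the locus. There wt and Cdc73-G313R were also the lowest at hel2 (3.31 and 3.87) and SPNCRNA.10 (3.28 and 4.04). The libraries share 1 total, so part of any r is common to all elements. The vtc4 3′ UTR rests on at most 13 reads. For comparison, the ade6 transcript had ratios to wt of 0.208 in Cdc73-G313R and 0.545 in Paf1Δ. In the others they ran from 2.67 in Rot1-Q472Stop to 3.9 in Paf1-G104R. Whether its reads come from the native gene or from the construct was not tested. The trp1 transcript, for an enzyme of tryptophan synthesis, stood at a level of 4.62 in Paf1Δ, 6.45 in Paf-1Q264Stop, 5.34 in Paf1-G104R, 6.69 in Leo1Δ, 4.71 in Leo1-W157Stop, 6.28 in Rot1-Q472Stop, 3.40 in Cdc73-G313R and 3.18 in wt.

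Most elements of other genes of thiamine supply and its control were too low to be counted. Of the 24 elements of thi1, thi2, thi4, thi5, tnr3, pho4, thi9 and bsu1, 5 passed the filter in each comparison. They belong to thi1, thi4 and tnr3, and the other genes never passed. As deposited, 0 of the 5 were higher by 1 in any, while 22.3% of all elements were higher in Paf1Δ and 3.8% to 8.73% in the others. At such shares 5 elements are too few to read a result from. The thi2 transcript, whose gene is also thiamine-repressed, stood at 3.11 to 3.68 in the mutants and 3.39 in wt, near the floor. The 3′ UTR of thi1, which encodes a transcription factor of thiamine genes, was lower by 1 or more in 6 libraries, at 4.23 to 6.34, and stood at 7.04 in Paf1-G104R, against 7.60 in wt. Recentred, it was lower by less than 1 in Leo1Δ (-0.56) and Leo1-W157Stop (-0.97). The tnr3 transcript and 3′ UTR were lower by 1 or more in Cdc73-G313R, where the median difference was -2.002. Recentred on that median, 2 elements of the list were higher by 1 or more in Cdc73-G313R, and 1 in Leo1Δ. Over all 24 elements, filter aside, the median difference ran from -0.26 to 0.00.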

How the data were processed

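Small RNA of 18 to 28 nt from 8 strains was sequenced, with 1 library per strain. Per the submitters' processing notes CASAVA 1.8 and Bowtie 0.9.9.1 were used, and neither the build nor the annotation or counting rule is given in the sources used here. The table deposited by the authors holds, from its values, log2 levels of reads per element length scaled to a common total, with 8 added before the log, so an element without reads is at 3. The values hold no replicates. Element ends match the chromosome lengths of ASM294v3, whose sequence was used.

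Read numbers were recovered from the value of 1 read in each library; 79.7% to 89.3% of elements above 0 came out whole within 0.05. Differences are mutant minus wt. Ratios and shares carry 95% exact Clopper-Pearson intervals, which cover counting error only, since PCR reads are not independent molecules. No p-value was computed. Work was done in Python 3.11.15 with numpy 2.4.6, pandas 2.3.3, scipy 1.17.1 and matplotlib 3.10.9, and the read recovery was tested on simulated data.

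Named were all elements of the 6 identifiers, flanking genes within 10 kb, the 5 elements most like nmt1 outside that window (1 per gene, level of at least 5 in some library), ade6 and the cox4 intron for comparison, and a thiamine list. Members and lists were chosen with earlier results of these data known. Alternatives were other scalings, a constant of 1, other filters and thresholds, and 1 element per gene.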

Additional observations from a re-analysis of the deposited data

How the results depend on the processing

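The difference of the nmt1 transcript from wt kept its direction under every scaling and constant tried in the 6 libraries other than Cdc73-G313R. Recentred on the median of all elements it was 4.15 in Leo1Δ, 2.72 in Leo1-W157Stop, 1.56 in Cdc73-G313R and 3.20 in Rot1-Q472Stop. Quantile normalization gave 3.81 in Leo1Δ and 0.67 in Cdc73-G313R, and a common total without rRNA gave 0.34 in Cdc73-G313R, where the deposited difference was -0.45. With a constant of 1 before the log it was 3.94 in Leo1Δ, 3.45 in Paf1-G104R, 3.20 in Paf-1Q264Stop, 2.68 in Leo1-W157Stop and 3.28 in Rot1-Q472Stop. Of the 70 differences at the other 10 member elements, 60 were above 0 as deposited and 60 to 63 under the alternatives. Without a level filter 6 members were higher by 1 in Paf1Δ. At a difference of 2 there was 1 in Paf1Δ and 2 in Cdc73-G313R, and with a filter of 6 there were 0 in Cdc73-G313R. Those past 2 were the hel2 5′ UTR in both libraries and the spp27 5′ UTR in Cdc73-G313R, on 1 to 4 reads. Counting 1 element per gene gave 2 in Cdc73-G313R and 5 in each of Leo1Δ, Paf1-G104R, Rot1-Q472Stop, Leo1-W157Stop and Paf-1Q264Stop. No paired analysis was possible because each strain has 1 library, so the groups share a single replicate number. Read numbers were low in Cdc73-G313R, where nmt1 held 14, and in wt, where SPNCRNA.10 held 6 and the hel2 5′ UTR 0. Yet wt had the largest sum of recovered reads. The causes of these changes were not tested.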
